A study of Mus musculus with 10 samples.

Results

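Mouse embryonic stem cells (mES cells) that overexpressed Tet3 were compared with control mES cells on day 4 of culture with fetal bovine serum (FBS). The titles of both libraries begin with EB, read here as embryoid bodies, which are aggregates of differentiating mES cells. The comparison was defined by the labels: the control library and the Tet3-overexpressing library of that day, 1 library a side, were 2 of the 10 libraries of the series. Of the 21937 genes in the deposited expression table, the 11614 at 1 RPKM or more in either library were compared, and the other 10323 lay under that level in both. RPKM is the number of reads on a gene scaled to its length and to the size of the library. A difference is log2(RPKM + 0.5) with Tet3 overexpression minus the same in the control, and a gene is called higher or lower at a difference of 1 on that scale, which is a 2-fold change. The added 0.5 RPKM understates the fold of low genes. With 1 library per condition there was no replicate and no test, and every difference below compares 2 libraries and has no replicate check.

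The series profiled differentiating mES cells by RNA sequencing on the SOLiD platform. In 1 experiment wild-type and Tet3 knockout cells were led to neuroectoderm in serum-free aggregates, and in the other control and Tet3-overexpressing cells were kept with serum, a condition described as not permissive for neural differentiation. The serum experiment was sampled on days 4 and 7, and its day 7 libraries are used here only to place the day 4 values. Both day 4 libraries are labelled as embryonic stem cells on a C57BL/6 background, and the genotype is given as control or Tet3-overexpressing. All samples carry the same note on how the knockout line was derived, from floxed Tet3 alleles with transient Cre. The construct that carried Tet3, its promoter, the number of clones and what the control line received were not given in the sources used here, so the effect of Tet3 and differences between the cell lines cannot be told apart. The table has 1 value for the whole Tet3 gene, so introduced and native transcripts cannot be told apart either.

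Tet3 is 1 of the TET dioxygenases, which oxidise methylated cytosine in DNA and so take part in its demethylation. In the early embryo, Wnt and Nodal signals induce the primitive streak, from which mesoderm and endoderm arise, and brachyury (gene symbol T), Eomes and Mixl1 are among the transcription factors that mark it. Cells that escape these signals tend to take a neural fate, which Sox1 marks early. In serum, aggregates of mES cells form streak-like cells and then mesodermal and endodermal derivatives.

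The control library held an estimated 44200000 reads and the Tet3 library 22200000, recovered from the spacing of low RPKM values. Genes at 1 RPKM or more numbered 11330 and 11144, and the 10 most abundant genes took 8.29% and 9.40% of the summed RPKM. The stem cell label was checked against pluripotency genes. Pou5f1, which encodes the transcription factor OCT4, was at 1118 RPKM in the control and 1186 RPKM with Tet3 overexpression. Nanog was at 16.6 and 18.1 RPKM, so both libraries still carried strong stem cell transcripts on day 4. The cells were profiled in bulk, and fewer cells of a type and less RNA per cell cannot be told apart in any value below.

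Tet3 itself stood at 0.96 RPKM in the control and 12.5 RPKM with Tet3 overexpression, a difference of 3.16 on the log2(RPKM + 0.5) scale. The 95% interval of the log2 ratio of estimated reads, which covers counting error only, was 3.49 to 3.93. The overexpressing library therefore matched its label. On day 7 the gap was smaller, at 5.87 and 14.1 RPKM, because the day 7 control had more Tet3 than the day 4 control. Tet1, the main TET enzyme of stem cells, was at 9.71 and 14.3 RPKM on day 4, and Tet2 at 3.69 and 6.98 RPKM, both under 2-fold apart. Among 11 genes for TET and DNA methylation enzymes, 9 were compared, and Tet3 and Dnmt3l were the 2 called higher. The share called higher over all compared genes was 1.83%. Dnmt3l, a cofactor of the de novo DNA methyltransferases, was at 82.2 and 206 RPKM. The methyltransferase gene Dnmt3a was at 33.6 and 63.0 RPKM and Dnmt3b at 182 and 143 RPKM, which lie on opposite sides of 0 but within 2-fold.

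Across the transcriptome, 212 genes were at least 2-fold higher with Tet3 overexpression, which is 1.83% of those compared, and 420 were at least 2-fold lower, which is 3.62%. The median of all compared genes was -0.07, the 5th percentile was -0.86 and the 95th was 0.65. Differences within 1.5-fold made up 83.1% of genes. Genes at 5 RPKM or more in either library, small RNAs left out, were ranked by their difference. Those farthest below the control were led by T, Gbp2, Fgf8 and Tagln, and those farthest above by Sox1, Tet3, Sox21 and Sept1. The scatter of the libraries shows both sets. In 24 of the lower and 5 of the higher genes 1 library was listed at 0. Around the threshold of expression, 182 genes had their higher value between 0.9 and under 1 RPKM and 171 between 1 and 1.1 RPKM.

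**Figure D1:**
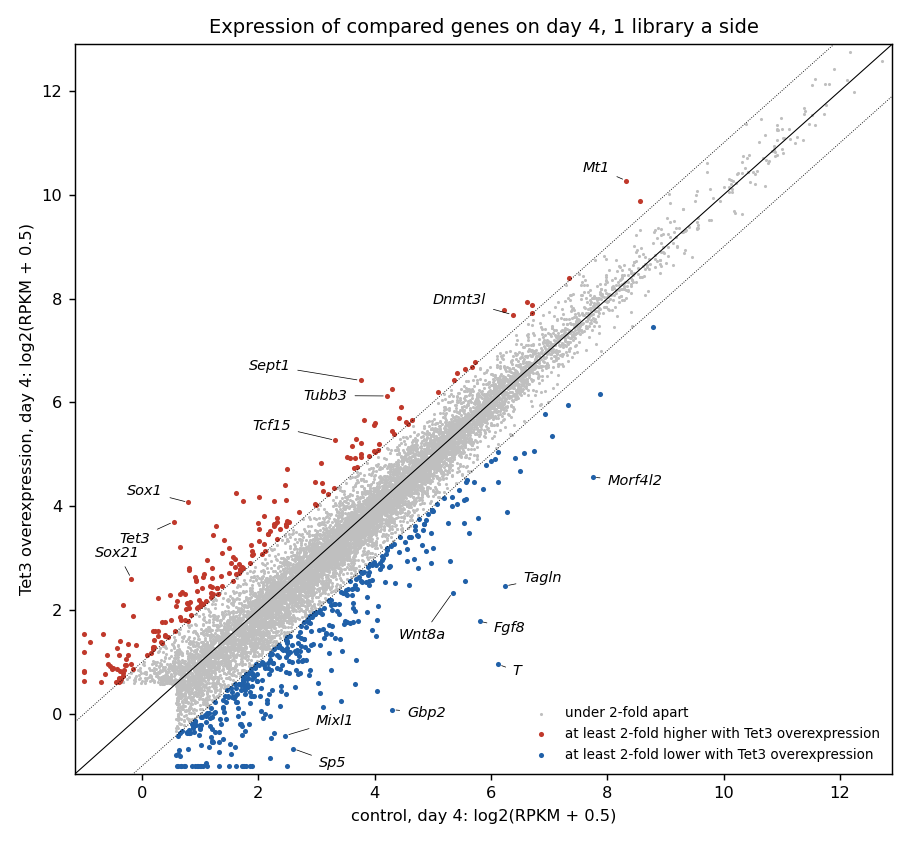
Each point is 1 of the 11614 compared genes, placed by log2(RPKM + 0.5) in the day 4 control (horizontal axis) and in the day 4 Tet3 library (vertical axis), 1 library a side; the solid line marks equal values and the dotted lines 2-fold differences. The 212 genes at least 2-fold higher are red and the 420 at least 2-fold lower are blue, with T, Fgf8 and Gbp2 far below the line and Sox1 and Tet3 far above it.

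The start regions of 4 genes are shown because the results turn on them. T and Sp5 are 2 targets of Wnt signalling that were among the 15 lowest genes of the ranking at 5 RPKM or more. Axin2 is the standard Wnt feedback target, and Sox1 was the gene farthest above the control in that ranking. Each sequence is the 250 bases before the RefSeq start in GRCm38.p6, 5′ to 3′ on the plus strand, which is the strand of all 4 genes. The windows are chr17:8434173-8434422 for T, chr2:70474673-70474922 for Sp5, chr11:108920099-108920348 for Axin2 and chr8:12395269-12395518 for Sox1. Capitals mark non-overlapping matches to CTTTGA or CTTTGT, the core of sites for the Wnt effectors TCF and LEF, searched on both strands, so that a match on the other strand reads TCAAAG or ACAAAG.
T: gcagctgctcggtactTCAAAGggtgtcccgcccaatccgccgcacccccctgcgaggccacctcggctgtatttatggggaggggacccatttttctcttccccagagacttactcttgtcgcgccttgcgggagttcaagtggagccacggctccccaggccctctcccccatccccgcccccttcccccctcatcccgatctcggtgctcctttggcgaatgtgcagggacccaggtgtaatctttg
Sp5: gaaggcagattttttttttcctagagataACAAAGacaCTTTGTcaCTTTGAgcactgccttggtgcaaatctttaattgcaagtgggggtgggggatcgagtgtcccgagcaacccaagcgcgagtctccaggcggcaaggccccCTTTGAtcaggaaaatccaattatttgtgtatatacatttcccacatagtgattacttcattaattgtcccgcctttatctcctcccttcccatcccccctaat
Axin2: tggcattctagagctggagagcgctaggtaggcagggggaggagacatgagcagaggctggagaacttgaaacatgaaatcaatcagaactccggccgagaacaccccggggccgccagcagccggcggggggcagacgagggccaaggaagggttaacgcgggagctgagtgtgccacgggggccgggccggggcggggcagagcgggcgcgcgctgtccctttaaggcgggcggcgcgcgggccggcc
Sox1: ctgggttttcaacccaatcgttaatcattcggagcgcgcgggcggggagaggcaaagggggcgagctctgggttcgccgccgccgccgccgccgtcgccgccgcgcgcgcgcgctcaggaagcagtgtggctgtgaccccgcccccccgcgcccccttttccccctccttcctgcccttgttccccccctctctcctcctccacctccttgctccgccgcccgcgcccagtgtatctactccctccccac
The T window held 1 match and the Sp5 window 4 matches, while the windows of Axin2 and Sox1 held none. Of all 32851 promoter windows, 9075 (27.6%) held at least 1 match. The windows also differed in CpG dinucleotides, the sites of DNA methylation that TET enzymes act on: 14 in T, 6 in Sp5, 24 in Axin2 and 29 in Sox1. Their GC content was 62.8%, 46.0%, 69.2% and 71.2% in that order. DNA methylation and factor binding were not measured in the data used here. A match describes these letters, and its absence says only that they are not in this window.

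Genes of the primitive streak and early mesoderm had the lowest median of the lists examined. Of 21 listed genes 16 were compared, 11 were at least 2-fold lower and 0 higher, and all 16 lay below 0. The median of these 16 was -1.90, against -0.07 over all compared genes, of which 3.62% were called lower. Over genes at 5 RPKM or more, where fewer were compared, 6 streak genes were lower, and the median was -2.17. T, the T-box factor that defines the streak, was at 69.2 RPKM in the control and 1.44 RPKM with Tet3 overexpression, a difference of -5.17. Among genes at 5 RPKM or more in either library, small RNAs left out, this was the largest difference in either direction on day 4. The interval of counting error for T was -6.25 to -5.03 for the log2 read ratio.

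Most other compared transcription factors of the streak were low in the same library. Mixl1, a homeobox factor of mesendoderm, was at 5.02 and 0.25 RPKM. Eomes, a T-box factor needed for definitive endoderm and mesoderm, was at 12.7 and 2.95 RPKM. Lhx1 and Gsc, which mark the anterior streak and its derivatives, were at 1.64 and 0.02 RPKM and at 2.73 and 0.38 RPKM. Evx1, a homeobox gene of the posterior streak, was at 2.52 and 0.14 RPKM. Foxa2, the forkhead factor of endoderm and node, was at 1.88 and 0.29 RPKM, and Msgn1, a regulator of presomitic mesoderm, at 1.0 and 0.08 RPKM. All 7 were at least 2-fold lower in the Tet3 library, though 5 of them were below 3 RPKM even in the control. All but Eomes were under 1 RPKM in the Tet3 library, as was Sp5 of the same list. Such genes passed the filter through the control alone and could only lie below the control.

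The signals of the streak were split. Fgf8, a growth factor needed for cells to leave the streak, was at 55.3 and 2.95 RPKM, a difference of -4.02. Nodal, the signal that induces the streak, was at 61.7 and 42.9 RPKM, and its inhibitors Lefty1 and Lefty2 were at 115 and 113 RPKM and at 71.3 and 48.5 RPKM. Fgf17 and Snai1 were the remaining compared genes under 2-fold, at 10.3 and 9.62 RPKM and at 3.06 and 2.65 RPKM. T, Mixl1, Eomes, Lhx1, Gsc, Evx1, Foxa2 and Msgn1 were thus far apart between the libraries. Nodal, its inhibitors and the transcription factor Snai1 differed by less than 2-fold. Mesp1, Mesp2, Wnt3a, Tbx6 and Cer1 were under 1 RPKM in both libraries.

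**Figure D2:**
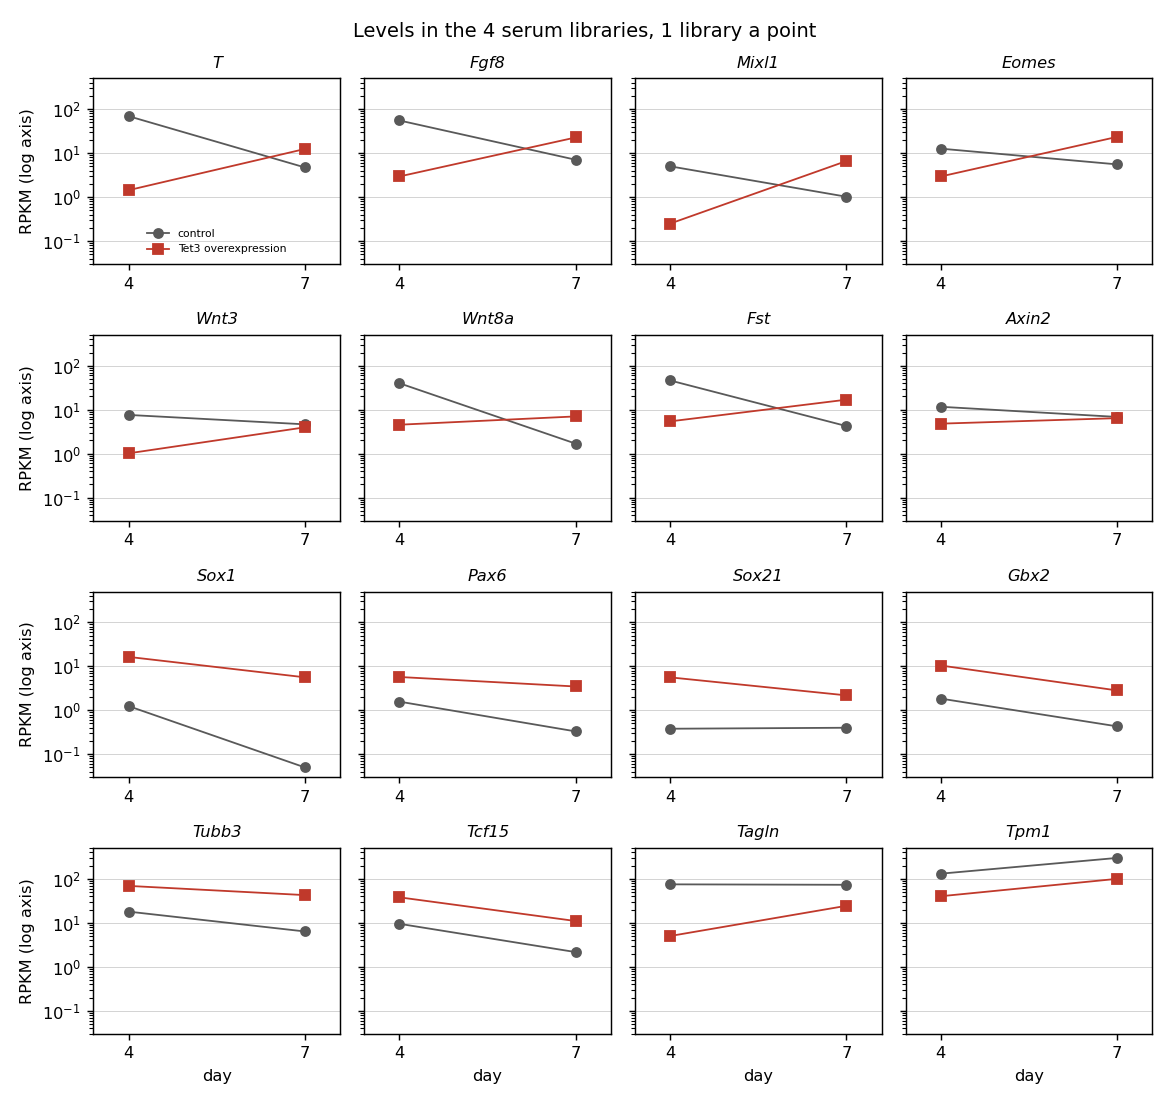
RPKM on a log axis for selected genes in the 4 serum libraries, control and Tet3 overexpression on days 4 and 7, 1 library per condition and day; lines join the days of a condition and are not a time course of the same cells. T was at 69.2 RPKM in the day 4 control and 1.44 RPKM in the day 4 Tet3 library, and Sox1 at 1.24 and 16.3 RPKM.

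Most of the Wnt ligands that could be compared were lower with Tet3 overexpression. Of 19 ligand genes 8 were compared, 6 were at least 2-fold lower, 0 were higher and the median was -1.66, against 3.62% lower and a median of -0.07 over all compared genes. Over genes at 5 RPKM or more 3 ligands were lower. Wnt8a, which signals through beta-catenin in the early posterior embryo, was the most abundant at 40.0 RPKM in the control and was at 4.56 RPKM in the Tet3 library. Wnt3, which is required for the streak to form and is also on the streak list, was at 7.61 and 1.02 RPKM. Of ligands known mainly for other signalling routes, Wnt5b was at 9.01 and 2.41 RPKM, Wnt4 at 3.71 and 0.45 RPKM, and Wnt11 at 1.51 and 0.16 RPKM. Wnt6 was at 1.21 and 0.28 RPKM. The exceptions were Wnt9a, at 2.02 and 0.86 RPKM (-0.89), and Wnt5a, at 1.29 and 1.55 RPKM (0.20). Wnt4, Wnt11, Wnt6 and Wnt9a were under 1 RPKM in the Tet3 library. They passed the filter through the control alone and could only lie below the control. The other 11 ligands were under 1 RPKM in both libraries. Summed over the 19 ligands, the level was 68.2 RPKM in the control and 12.3 RPKM with Tet3 overexpression.

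Wnt target genes were lower in part. Of 20 listed genes 16 were compared, 5 were at least 2-fold lower, 0 higher, and the median was -0.56. Among all compared genes 3.62% were lower, and the median was -0.07. Sp5, a zinc finger factor and direct target of beta-catenin, was at 5.56 and 0.13 RPKM, a difference of -3.27. Its interval of the log2 read ratio was -6.89 to -4.30, which is wide because few reads of the Tet3 library fell on it. Axin2, a negative feedback inhibitor, was at 11.7 and 4.82 RPKM. Tnfrsf19, a membrane receptor, was at 10.6 and 2.81 RPKM, and Cdx2, a homeobox gene of trophoblast and the posterior body, at 2.75 and 0.38 RPKM. T completes the 5. Sp5 and Cdx2 were under 1 RPKM in the Tet3 library, so they passed the filter through the control alone. The nuclear partners of beta-catenin Tcf7 and Lef1 were at 48.4 and 25.1 RPKM and at 11.7 and 6.75 RPKM, both short of 2-fold. Other targets that many cell types share hardly differed: Myc was at 10.6 and 10.4 RPKM, Ccnd1 at 60.6 and 51.0 RPKM and Nkd1 at 1.68 RPKM in both.

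Receptors were closer to the background than ligands. Of 21 genes for Wnt receptors and R-spondins, 18 were compared, 15 lay below 0 and 3 were lower, with a median of -0.30. Among all compared genes 3.62% were lower, 1.83% higher and the median was -0.07. Rspo3, a secreted amplifier of Wnt signalling, was at 2.35 and 0.17 RPKM, and the frizzled receptors Fzd2 and Fzd10 were at 11.0 and 4.43 RPKM and at 9.01 and 4.10 RPKM. Rspo3, and Fzd3 and Fzd4 among those below 0, were under 1 RPKM in the Tet3 library. They passed the filter through the control alone and could only lie below the control. The most abundant frizzled receptor, Fzd7, was at 31.0 and 34.5 RPKM, and the co-receptor gene Lrp5 at 33.9 and 21.0 RPKM. Among 16 secreted Wnt inhibitors only 5 were compared. Notum, which removes a lipid from Wnt proteins, was the only one called, at 2.32 and 6.04 RPKM. Sfrp1, which binds Wnt proteins outside the cell, was at 20.7 and 33.5 RPKM, under 2-fold. Dkk1, an inhibitor that binds the co-receptor, was at 0.50 and 0.30 RPKM and was not compared.

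**Figure D3:**
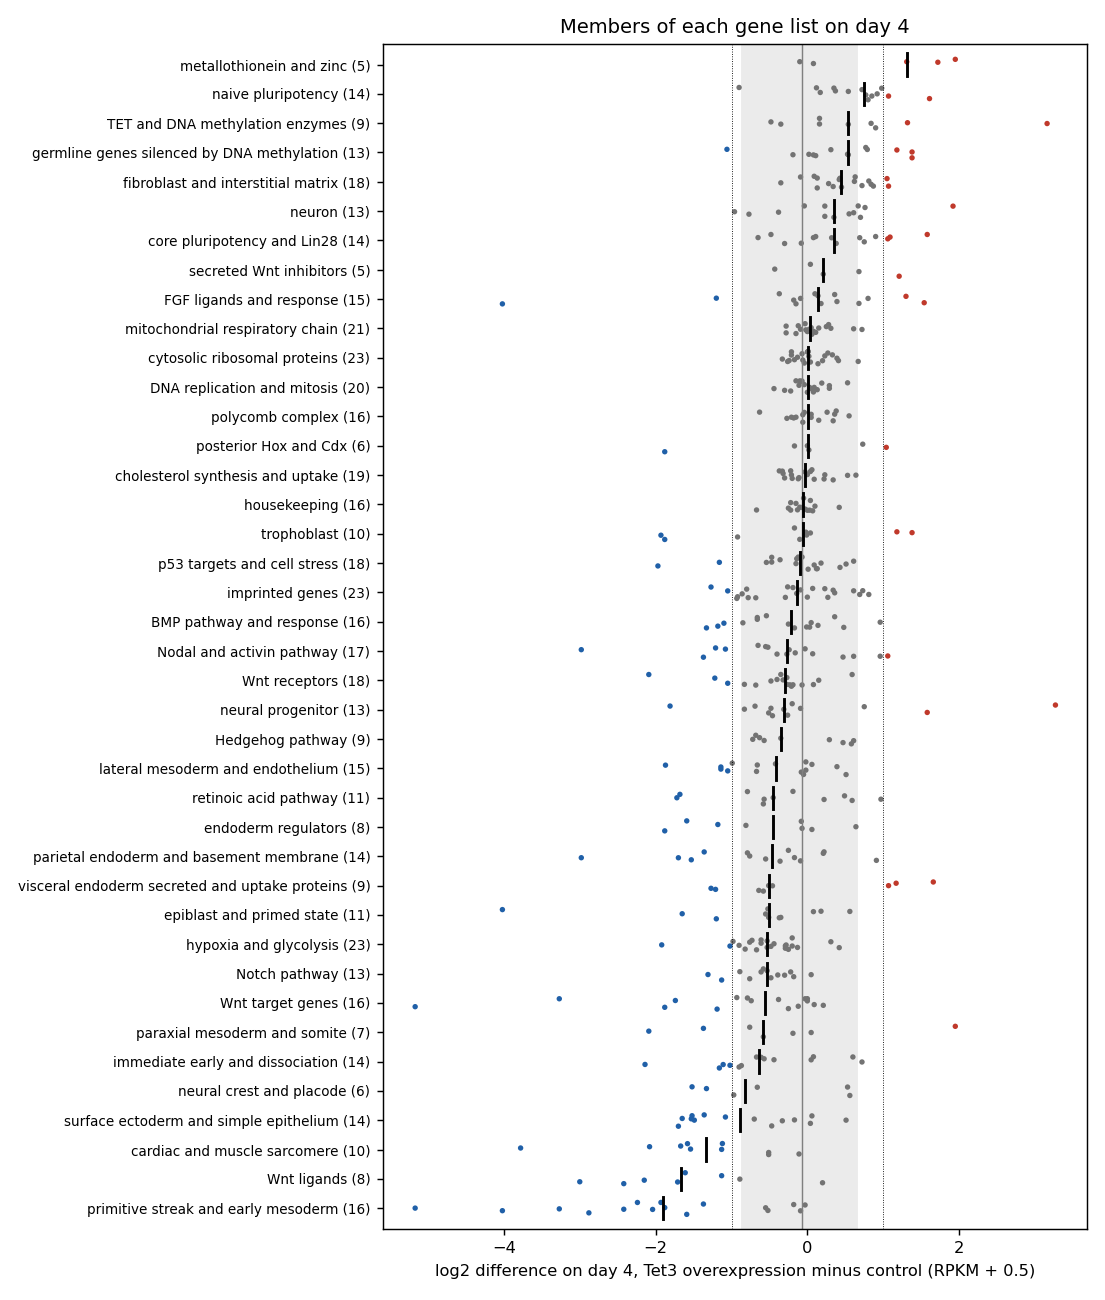
Differences of the compared members (points) and their median (bar) for gene lists on day 4, on the log2(RPKM + 0.5) scale, 1 library a side, with the number compared in brackets; dotted lines mark 2-fold, the vertical line the median of all compared genes and the grey band their 5th to 95th percentile (-0.86 to 0.65). The medians of the streak list (-1.90) and the Wnt ligands (-1.66) lie left of the 2-fold line, while replication, ribosomal and respiratory chain genes gather at 0.

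Other signalling pathways stood nearer to the centre than the Wnt ligands, though not all nearer than the Wnt targets or receptors by much. Among all compared genes 3.62% were lower and 1.83% higher, with a median of -0.07. Of the Nodal and activin list 17 genes were compared, with 1 higher, 4 lower and a median of -0.27. Fst, which encodes the activin inhibitor follistatin, was at 46.3 and 5.43 RPKM. Foxh1, the DNA-binding partner of SMAD proteins in Nodal signalling, was at 68.9 and 32.3 RPKM. The FGF list had 15 compared genes, 2 higher, 2 lower and a median of 0.14. Spry4, a feedback inhibitor induced by FGF signalling, was at 11.8 and 35.1 RPKM, and Fgf15 at 3.97 and 10.5 RPKM, opposite in direction to Fgf8 and to Fgf5 (22.5 and 9.49 RPKM). In the BMP list 3 of 16 compared genes were lower, Msx1, Bmp7 and Id1, and the median was -0.21. In the Notch list 2 of 13 were lower, Nrarp and Notch3, and 12 lay below 0. Its median of -0.53 was close to that of the Wnt targets (-0.56). In the retinoic acid list 2 of 11 were lower, Dhrs3 and Cyp26a1, with a median of -0.45. No gene of 9 compared in the Hedgehog list was called. Of the lower genes, Cfc1 of the Nodal and activin list, Msx1 and Cyp26a1 were under 1 RPKM in the Tet3 library. They passed the filter through the control alone and could only lie below the control.

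A few genes known from early neural tissue were at least 2-fold higher with Tet3 overexpression, while most members of the neural lists were within 2-fold. Sox1, the early marker of neuroectoderm, was at 1.24 RPKM in the control and 16.3 RPKM in the Tet3 library, a difference of 3.27, with an interval of 3.53 to 3.91 for the log2 read ratio. Pax6, a regulator of eye and forebrain development, was at 1.57 and 5.71 RPKM. Sox21, a relative of Sox1, was at 0.38 and 5.60 RPKM, and Gbx2, a homeobox gene of the anterior hindbrain that stem cells also express, at 1.84 and 10.4 RPKM. Tubb3, the neuronal beta-tubulin, was at 18.0 and 69.2 RPKM. Sox1, Pax6 and Tubb3 are on the neural lists, while Sox21 and Gbx2 are on none of the lists and were named for their place among the 15 highest genes.

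Of 24 neural progenitor genes 13 were compared, and Sox1 and Pax6 were the 2 called higher. Among all compared genes 1.83% were higher and 3.62% lower. Nes, the intermediate filament nestin of neural progenitors, was called lower at 31.4 and 8.61 RPKM. The list's median was -0.31, and 10 of the 13 were below 0. Otx2, a factor of epiblast and forebrain, was at 38.1 and 26.7 RPKM, Sox3 at 6.32 and 5.91 RPKM and Msi1 at 20.3 and 11.2 RPKM. The forebrain genes Six3, Emx2 and Lhx2 were under 1 RPKM in both libraries. Of 25 neuron genes 13 were compared, 9 were above 0, Tubb3 was called higher and none lower, and the median was 0.35, against -0.07 over all compared genes. Stmn2, a microtubule regulator, was at 97.7 and 156 RPKM and Ina, an intermediate filament, at 14.9 and 24.5 RPKM, both under 2-fold. The neurogenic factors Neurog1 and Neurog2 and the migrating neuron marker Dcx were under 1 RPKM in both.

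Naive pluripotency genes were mostly above the control, though most differed by less than 2-fold. All 14 listed genes were compared, 13 lay above 0, 2 were at least 2-fold higher and the median was 0.75. Among all compared genes 1.83% were higher, 3.62% lower and the median was -0.07. Nr0b1, an orphan nuclear receptor, was at 15.5 and 48.4 RPKM, and Zfp42, the stem cell marker REX1, at 15.4 and 33.0 RPKM. Esrrb, an orphan nuclear receptor of the naive network, was at 55.5 and 101 RPKM, Klf4 at 10.6 and 18.4 RPKM and Fgf4 at 22.7 and 39.8 RPKM, all under 2-fold. Dppa3, the 1 gene below 0, was at 26.3 and 13.8 RPKM. In the core pluripotency list 3 of 14 genes were higher, Dppa2 (15.4 and 47.1 RPKM), Dppa4 (46.5 and 99.2 RPKM) and Gdf3 (19.6 and 41.5 RPKM), with a median of 0.35. Sox2 was at 51.2 and 86.3 RPKM. The epiblast list, which marks the primed state after implantation, went the other way: 3 of 11 compared genes were lower, Fgf8, Cldn6 and Fgf5, and the median was -0.51.

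Contractile genes and some epithelial genes were also below the control. Of 18 sarcomere and smooth muscle genes 10 were compared, all 10 were below 0, 7 were at least 2-fold lower (3 over genes at 5 RPKM or more) and the median was -1.34. Tagln, an actin-binding protein of smooth muscle, was at 75.1 and 5.02 RPKM (-3.78). The actins Acta1, Actc1 and Acta2 were at 5.04 and 0.81, 3.30 and 0.77, and 2.21 and 0.43 RPKM. These actins, the light chain gene Myl3 and the troponin gene Tnnc1 were under 1 RPKM in the Tet3 library. They passed the filter through the control alone and could only lie below the control. The sarcomere genes Tnnt2, Myh6 and Myh7 and the calcium release channel gene Ryr2 were under 1 RPKM in both libraries, so the 7 are mainly actins, actin-binding proteins and low light chain and troponin genes. Of 18 simple epithelium genes 14 were compared, 11 were below 0, 7 were lower and the median was -0.89, where 3.62% of all compared genes were lower. The epithelial transcription factor genes Grhl2, Grhl3 and Tcfap2c were above 0, at 0.06, 0.51 and 0.04. The keratins Krt8, Krt18 and Krt19 were at 93.8 and 32.1, 160 and 61.7, and 25.2 and 7.39 RPKM. The tight junction genes Cldn6 and Cldn7 were at 69.3 and 21.7 RPKM and at 57.4 and 19.8 RPKM. Cdh1 and Epcam, the adhesion genes that stem cells share with epithelia, were at 111 and 88.8 RPKM and at 148 and 107 RPKM, within 2-fold.

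Markers of later derivatives were scarce on day 4, which limits what can be compared. Of 15 blood genes 2 reached the filter, of 12 cardiac regulators 4, and of 25 Hox and Cdx genes 6. Hbb-bh1, an embryonic globin, was at 2.01 and 0.29 RPKM on day 4, against 4230 and 5.15 RPKM on day 7. In the lateral mesoderm and endothelium list 4 of 15 compared genes were lower, led by the vascular growth factor receptor Kdr at 2.13 and 0.22 RPKM. In that list 0 genes were higher, 12 were below 0 and the median was -0.42. Among all compared genes 3.62% were lower and 1.83% higher. The 4 lower genes, and Tek, Tie1, Tal1 and Lmo2, were under 1 RPKM in the Tet3 library. They passed the filter through the control alone and could only lie below the control. Only 2 genes of the list were at 5 RPKM or more, Pecam1 and Eng, and the median over these 2 was 0.45. In the paraxial mesoderm list 7 genes were compared and 2 were lower, Msgn1 and Rspo3. Both were under 1 RPKM in the Tet3 library, so they passed the filter through the control alone and could only lie below it. Tcf15, a regulator of somite epithelium that pluripotent cells also express as they leave the naive state, stood apart from these at 9.51 and 38.1 RPKM. Of the visceral endoderm genes 9 were compared, 3 were higher and 2 lower. Spink3, a secreted protease inhibitor, was at 1.40 and 5.51 RPKM, and Cubn, an endocytic receptor, at 1.86 and 0.52 RPKM, so the list had no common direction. Cubn passed the filter through the control alone and could only lie below the control. Fibroblast and matrix genes were compared in 18 cases, of which 16 were above 0, 2 were higher and the median was 0.44, with the collagen gene Col1a1 at 12.4 and 26.5 RPKM.

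Other large differences were found at high levels or outside these lists. Morf4l2, which encodes a subunit of a histone acetyltransferase complex, was at 215 RPKM in the control and 23.1 RPKM with Tet3 overexpression on day 4. On day 7 it was at 230 and 20.6 RPKM. Its close relative Morf4l1, looked up after these values were seen, was at 313 and 291 RPKM on day 4, and how reads shared by the 2 genes were counted was not given in the sources used here. Mt1 and Mt2, metallothioneins that bind zinc, were at 319 and 1234 RPKM and at 379 and 941 RPKM. In the metallothionein and zinc list 3 of 5 compared genes were higher, against 1.83% of all compared genes, and the median was 1.31. Sept1, a septin, was at 13.0 and 85.3 RPKM. Ddc, which makes dopamine and serotonin from their precursors, was at 1.92 and 11.8 RPKM. Ltb, a cytokine of the tumour necrosis factor family, was at 16.0 and 0.86 RPKM.

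Lists of general cell functions were close to 0. In DNA replication and mitosis (20 compared), cytosolic ribosomal proteins (23), the respiratory chain (21), cholesterol synthesis (19), polycomb complexes (16) and housekeeping genes (16), 0 genes were called in either direction. Their medians were 0.01, 0.01, 0.04, -0.03, 0.01 and -0.06. Genes that follow culture state were called in part, where 3.62% of all compared genes were lower. Of 23 compared genes for hypoxia and glycolysis 21 were below 0, with 2 called lower and a median of -0.53; Ndrg1, a gene induced by low oxygen, was at 26.2 and 6.56 RPKM. Of 14 compared immediate early genes 4 were lower, Cyr61, Atf3, Ier3 and Ctgf, and the median was -0.64; Cyr61, a matricellular protein gene induced by serum, was at 48.9 and 10.7 RPKM. The p53 and stress list had 2 of 18 lower and a median of -0.10. The part of these states in the differences of the lineage lists was not tested.

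The day 7 libraries showed which day 4 differences recurred. On day 7, 829 of 12027 compared genes (6.89%) were at least 2-fold higher with Tet3 overexpression and 1377 (11.4%) at least 2-fold lower. Of the 212 genes higher on day 4, 94 were also higher on day 7 (44.3% of the day 4 list and 11.3% of the day 7 list) and 12 were lower. Of the 420 lower on day 4, 107 were also lower on day 7 (25.5% and 7.77%) and 42 were higher. Over the 175 higher genes that were compared on day 7, 150 lay above 0 on day 7 with a median of 1.09. Over the 376 lower genes 238 lay below 0 and 136 above, with a median of -0.36. Most genes higher on day 4 thus lay above the control again, while those lower on day 4 were divided.

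The recurring genes were of several kinds. Sox1 was at 0.05 and 5.61 RPKM on day 7, Pax6 at 0.33 and 3.47 RPKM and Tubb3 at 6.37 and 42.8 RPKM, each higher with Tet3 overexpression on both days. Mt1 was at 365 and 1320 RPKM, Sept1 at 9.24 and 47.9 RPKM and Tcf15 at 2.16 and 11.0 RPKM. Among genes lower on both days were Morf4l2, Rnf128, a ubiquitin ligase gene (15.9 and 3.01 RPKM on day 4, 34.8 and 5.90 on day 7), and Prickle1, a gene of planar cell polarity (10.4 and 1.83, then 25.4 and 6.69 RPKM). Tpm1, a tropomyosin gene, was at 131 and 40.3 RPKM on day 4, against 300 and 100 RPKM on day 7. Cdx2 was at 44.9 and 0.93 RPKM on day 7, a wider gap than on day 4.

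The streak genes were not lower on day 7. Of 17 streak genes compared on day 7, 12 were at least 2-fold higher with Tet3 overexpression, 0 were lower and the median was 1.62. Among all genes compared on that day 6.89% were higher and 11.4% lower, and their median was -0.04. Over the 16 streak genes compared on day 4 the day 7 median was 1.36. Of the 11 genes lower on day 4, 6 were higher on day 7, and Evx1, Wnt3, Foxa2, Msgn1 and Sp5 were not called. T was at 4.72 and 12.5 RPKM, Eomes at 5.55 and 23.5 RPKM, Mixl1 at 1.02 and 6.62 RPKM and Fgf8 at 7.07 and 22.8 RPKM. In the control library T was thus lower on day 7 than on day 4, and in the Tet3 library it was higher. Pluripotency genes were farther apart on day 7 than on day 4: Pou5f1 was at 207 and 880 RPKM and the core list's median was 1.99. The neural progenitor median was 1.20 on day 7 and the neuron median 1.77. The fibroblast and matrix list was at -2.60 on day 7, on the other side of 0 from day 4. No replicate stands behind either day, and the difference between days was not tested.

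**Figure D4:**
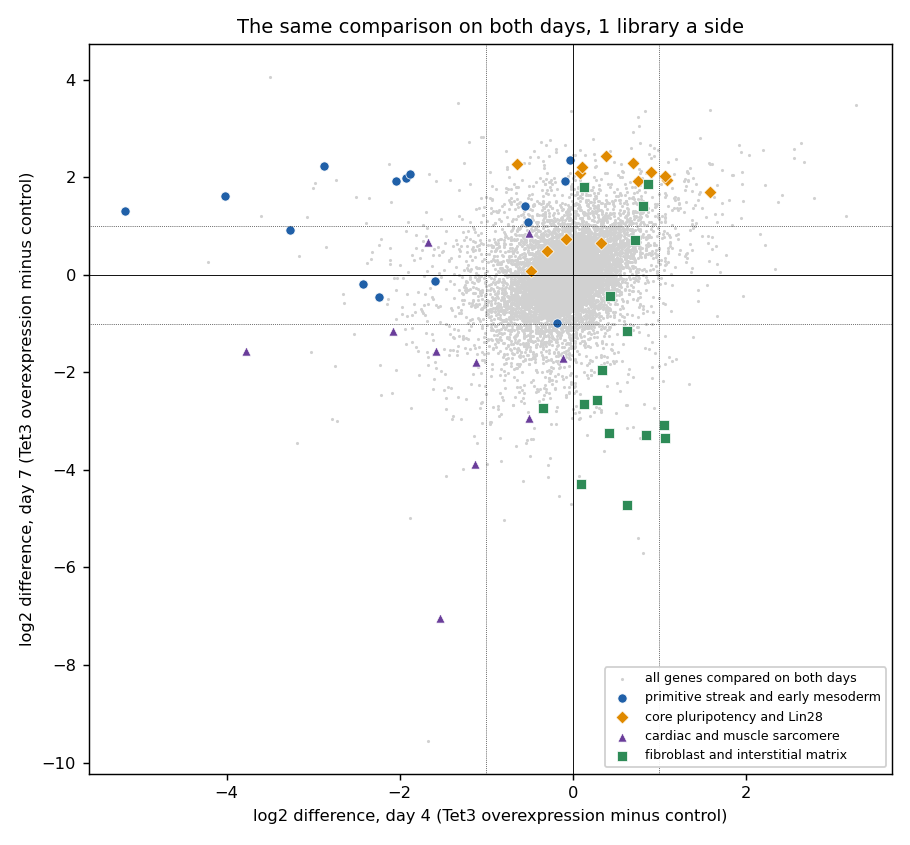
Each point is 1 gene compared on both days, with its log2(RPKM + 0.5) difference on day 4 (horizontal axis) and day 7 (vertical axis), 1 library per condition and day; coloured symbols mark 4 gene lists and dotted lines 2-fold. Streak genes (blue circles) reach from T at -5.17 on day 4, where day 7 is at 1.31, and matrix genes (green squares) lie mostly above 0 on day 4 and below it on day 7.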

How the data were processed

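The authors deposited 1 table of RPKM values per gene for 10 libraries of mES cells. Per the labels' protocols, total RNA was sequenced on the SOLiD platform. The submitters' processing notes name HTSeq and the build mm9, without stating their roles. The aligner, annotation, use of strand and handling of multiply mapped reads were not given in the sources used here. RPKM values carry no counts. Estimated library totals were recovered by setting low values (up to 1 RPKM, transcript lengths from another annotation) to whole reads: 72.5% and 72.9% of values used for the day 4 libraries then lay within 0.15 of a whole read, against 10.1% to 44.5% for other totals. Too few values came out whole for a count test. Intervals of read ratios are 95% binomial (exact Clopper-Pearson) and cover counting error only.

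Differences of log2(RPKM + 0.5) were computed over genes at 1 RPKM or more in either library, with Python 3.11.15 and pandas 2.3.3, and the code was tested on simulated data. No test was run, since each condition had 1 library a day. The genes named are the TET genes, the 15 highest and 15 lowest differences at 5 RPKM or more (small RNAs left out), up to 4 per list, 10 each way on both days, and list members needed for a role. The lists (44, with 711 distinct genes, all found, 8 through an older symbol) and the comparison were chosen with earlier results of these data known. Genes can stand on several lists.

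Alternatives were pseudocounts of 0.1 and 1 RPKM, no filter, a filter of 5 RPKM, TPM scaling, median centring and leaving out transcripts under 300 bases. Promoter windows are RefSeq sequences of GRCm38.p6. A comparison of promoter CpG content over the called genes was void, since fewer than 80% of them had a window.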

Additional observations from a re-analysis of the deposited data

Results flagged for a closer look

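Results are given here because they passed 2-fold in 1 direction on day 4 and in the other direction on day 7. Over all genes, 42 were lower on day 4 and higher on day 7, and 12 were higher and then lower; the genes below are those among the named genes and the streak list. All are differences of log2(RPKM + 0.5), Tet3 overexpression minus control, with 1 library per condition and day, and the difference between the days was not tested. The median of the compared primitive streak genes was -1.90 on day 4 (16 genes) and 1.62 on day 7 (17 genes), and 1.36 on day 7 over the day 4 members. T was at -5.17 and 1.31, Fgf8 at -4.02 and 1.62, Mixl1 at -2.88 and 2.23, and Eomes at -1.93 and 1.99. Lhx1 was at -2.04 and 1.92, and Gsc at -1.88 and 2.06. Of signalling genes, Wnt8a was at -3.00 and 1.78, Fgf5 at -1.20 and 2.72, and Fst, the activin inhibitor follistatin, at -2.98 and 1.88. The cytokine gene Ltb was at -3.60 and 1.20, Ppp4r4, a regulatory subunit of a protein phosphatase, at -3.07 and 1.19, and Sycp3, a meiotic chromosome protein, at -1.06 and 1.57. In the opposite order, the collagen gene Col1a1 was at 1.07 and -3.35, and Igfbp5, a binding protein of insulin-like growth factors, at 1.05 and -3.09.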

How the results depend on the processing

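Counts depended on the filter and the scaling. With genes at 5 RPKM or more, 120 genes were higher and 227 lower in place of 212 and 420; fewer genes (8340) were compared under that filter. The median of the lateral mesoderm and endothelium list was 0.45 there against -0.42, over 2 members. With TPM scaling 674 genes were lower, over 12652 compared genes, and all 420 were among them; the cause was not tested. Median centring gave 256 higher and 357 lower genes. The streak list had 6 to 13 lower genes over the settings, the Wnt ligands 3 to 7 and the sarcomere list 3 to 7, with the lowest of each at 5 RPKM or more. No paired analysis was possible because there is 1 library per condition and day and the labels carry no replicate numbers, and no replicate could be left out. The Tet3 library had an estimated 22200000 reads against 44200000 in the control, so levels under 1 RPKM are least exact there.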

Other observations

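Interferon-inducible and antigen presentation genes were below the control on day 4. This list was written after the values of 6 of its genes were seen, so its count is a description. Of 30 listed genes 24 were compared, 15 were at least 2-fold lower with Tet3 overexpression, 1 was higher and the median was -1.49. Leaving aside the 6 genes seen first, 11 of 18 compared genes were lower and 0 higher, against 3.62% of all compared genes lower. Gbp2, Gbp3, Psmb8, Irgm1, Irgm2, Igtp and Isg15 were under 1 RPKM in the Tet3 library. These genes passed the filter through the control alone and could only lie below the control. Gbp2, an interferon-induced GTPase, was at 19.3 RPKM in the control and 0.56 RPKM in the Tet3 library. Psmb8, a subunit of the immunoproteasome, was at 10.2 and 0.69 RPKM. Irf1, an interferon regulatory factor, was at 28.9 and 8.31 RPKM, and H2-K1, a class I histocompatibility gene, at 47.2 and 17.2 RPKM. B2m, the light chain of class I molecules, was at 27.2 and 23.3 RPKM, within 2-fold. Ube2l6, the conjugating enzyme for ISG15, was the 1 gene higher, at 5.14 and 25.8 RPKM. On day 7 the list had 0 lower and 2 higher of 23 compared genes and a median of 0.38. Among all genes compared on day 7, 6.89% were higher and 11.4% lower, and the median was -0.04. The difference between the days was not tested.

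A list of actin cytoskeleton and serum response genes, also written after the values of 6 members were seen, had 8 of 26 compared genes lower, 0 higher and a median of -0.42. Leaving aside those 6 genes, 2 of 20 were lower, Zyx and Amotl2, where 3.62% of all compared genes were lower. Actb, the gene for beta-actin, was at 1364 and 1388 RPKM.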
